A study of Mus musculus with 14 samples.

Results

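Meningeal fibroblast genes were followed in the superior colliculus of mouse pups, as a measure of the covering tissue that came with the dissected pieces. The set holds 33 genes, of 55359 gene identifiers in the count tables, and was chosen by symbol: fibroblast, collagen and arachnoid genes of the meninges. Many of them had been named in earlier comparisons of the same libraries, between layers and between treatments in the superficial layer, so those 3 kinds of comparison are described here without p-values for the genes. The deep cbx comparison is given with tests. Its saline deep libraries also took part in the layer comparison after saline, so its p-values are not fully free of the choice of genes.

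RNA was measured by poly-A selected RNA sequencing of the superior colliculus, microdissected into a superficial and a deep piece. The colliculus is the midbrain region that receives input from the retina. The mice were of the ICR/CD-1 strain and 6 days old. On postnatal day 0 or 1, all had 0.3 to 0.5 µL injected into the vitreous: saline in the control pups, or 50 mM of the gap junction blocker carbenoxolone (cbx). The study used cbx to block the retinal waves of the first days of life. Each library held RNA pooled from 3 brains. The 4 groups were saline superficial (n = 3), cbx superficial (n = 4), saline deep (n = 3) and cbx deep (n = 4), and no uninjected group was analysed here. Spread and p-values therefore measure differences between pools, and the labels do not state how pools were assigned to litters.

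The meninges cover the brain in layers. The pia lies on the brain surface, the arachnoid above it carries a cell barrier with transporters and prostaglandin synthesis, and fibroblasts of all layers secrete collagens and small proteoglycans. Many meningeal fibroblasts come from neural crest or mesoderm and keep forkhead and other mesenchymal transcription factors. The superficial colliculus has a pial surface, while the deep layers lie below it. In bulk RNA, fewer cells of a type and less RNA per cell cannot be told apart.

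The libraries held between 32004952 and 48776827 counts each, and all 33 genes passed the filter on low counts. Every library carried neuronal RNA at a high level: 12 pan-neuronal genes summed to 6546 to 7203, 6348 to 6903, 7994 to 8202 and 7584 to 8475 CPM (read counts scaled to a common library size, here with TMM factors) in saline superficial, cbx superficial, saline deep and cbx deep libraries. Of the 7 pools, saline pool 1 had almost no Xist RNA (at most 1.94 CPM in either layer) and cbx pool 4 had 0 counts of Ddx3y, so both were pools of one sex. These 2 pools also held the highest meningeal levels of their superficial groups. No library stood apart as a copy of another.

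Summed over the 33 genes, the meningeal signal was strong in the superficial pieces and varied between pools. It was 2061, 1656 and 1401 CPM in saline superficial libraries 1 to 3 and 2717, 1901, 3748 and 4932 CPM in cbx superficial libraries 1 to 4. Cbx library 2 lay within the saline range and the other cbx libraries lay above it. Deep libraries held 342, 353 and 351 CPM after saline and 304, 268, 302 and 317 CPM after cbx, and the 2 deep groups did not overlap. The ratio of group means between superficial and deep was 4.9 after saline and 11.2 after cbx. Between cbx and saline it was 1.95 in the superficial layer and 0.854 in the deep layer.

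A pair of genes weighed most in these sums. Ptgds gave much of the superficial sum and Igfbp2 more than any other gene of the deep sum. Without both, the superficial libraries held 1417, 1146 and 956 CPM after saline and 1399, 1266, 1938 and 2575 CPM after cbx. The deep libraries held 141, 156 and 139 CPM and 95.6, 104, 120.4 and 124 CPM. The ratios then became 8.09 and 16.2 between the layers, and 1.53 and 0.765 between cbx and saline. This sum was chosen after the data were seen. In it, cbx superficial libraries 1 and 2 lay within the saline range, and only libraries 3 and 4 lay above it.

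**Figure D1:**
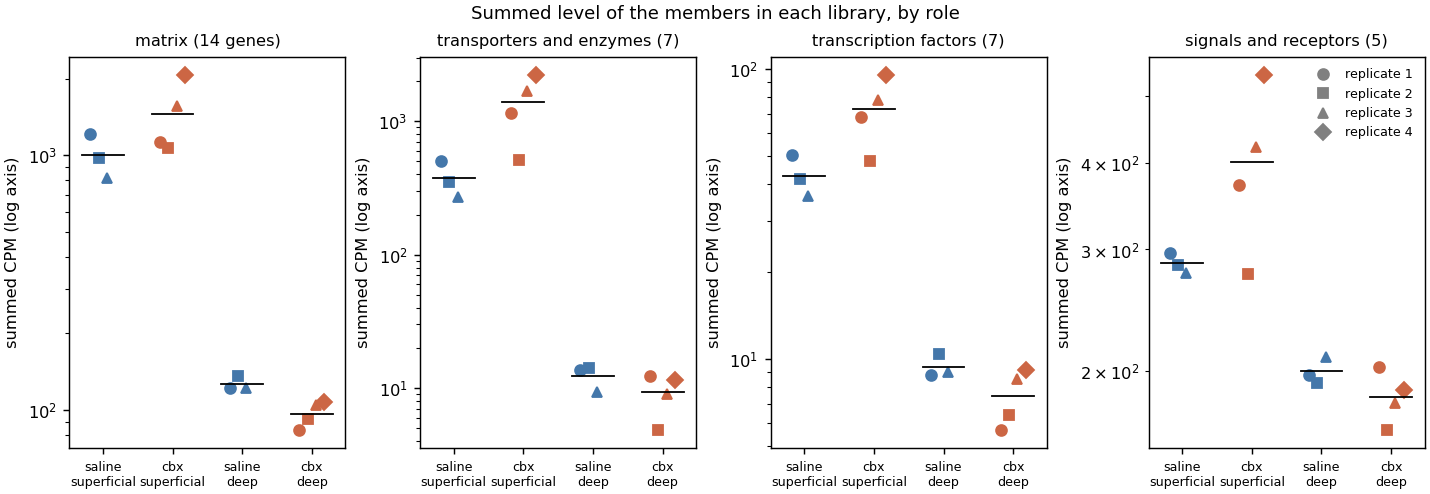
Summed CPM of the 33 genes in each of the 14 libraries, on log axes, split into 14 matrix genes, 7 transporters and enzymes, 7 transcription factors and 5 signals and receptors. Points are libraries, with a shape for each replicate number, and lines are group means; cbx superficial library 4 is the highest in every panel and the deep groups are the lowest.

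The matrix group held 14 genes of the extracellular matrix. Per kilobase of transcript, the scale on which genes can be compared, the fibrillar collagens led it in the saline superficial group: Col1a2 had 48.2, Col3a1 39.5 and Col1a1 30.2 CPM per kilobase. Islr, a secreted protein with leucine-rich repeats, followed with 26.5, and decorin (Dcn), which coats collagen fibrils, with 25. Lumican (Lum) was the lowest of the group with 3.36, and Fam180a had 4.28. In the saline deep group these levels were 4.6 for Col1a2, 4.27 for Islr and 6.86 for biglycan (Bgn), another small proteoglycan, which was the highest matrix gene there.

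Col1a2 (ENSMUSG00000029661) encodes a chain of type I collagen, the main fibrillar collagen of connective tissue. Its level was 313, 254 and 206 CPM in saline superficial libraries 1 to 3 and 276, 257, 404 and 557 CPM in cbx superficial libraries 1 to 4. In the deep layer it was 25.1, 26.7 and 21.9 CPM after saline and 14.6, 16.5, 20.8 and 19.7 CPM after cbx. Cbx superficial libraries 1 and 2 fell inside the saline range, libraries 3 and 4 lay above it, and in the deep layer every cbx library lay below every saline library. The difference between layers was 3.39 (SE 0.30) on the log2 scale after saline and 4.39 (SE 0.27) after cbx.

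Col1a1 (ENSMUSG00000001506), the partner chain of type I collagen, had 222, 171 and 144 CPM and 184, 196, 276 and 366 CPM in the saline and cbx superficial libraries. It had 12.6, 19.6 and 15.7 CPM and 6.1, 5.87, 13 and 10.2 CPM in the saline and cbx deep libraries. The order of libraries was nearly that of Col1a2, with one exchange: cbx library 1 was the lowest of the cbx superficial group. Type III collagen, Col3a1 (ENSMUSG00000026043), found in reticular fibres and vessel walls, had 272, 211 and 176 CPM and 205, 233, 301 and 451 CPM in the superficial libraries. Its deep levels were 17, 24.2 and 18.4 CPM after saline and 10.7, 12.2, 14.2 and 14.7 CPM after cbx, with no overlap between the deep groups.

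Islr (ENSMUSG00000037206) had the smallest spread of the matrix genes in the saline superficial group and was singled out after its values were seen. Its superficial levels were 63.7, 60.2 and 52.9 CPM after saline and 75.5, 65.9, 86.8 and 87.1 CPM after cbx. Its deep levels were 10.2, 9.82 and 8.4 CPM after saline and 6.68, 6.61, 7.14 and 7.66 CPM after cbx. In both layers the treatments did not overlap: cbx was above saline in the superficial and below saline in the deep layer. Lum (ENSMUSG00000036446) had the smallest superficial difference of all 33 genes between cbx and saline: 10.7, 8.98 and 5.03 CPM against 10.4, 8.39, 10.6 and 12.3 CPM. Only cbx library 4 lay above all saline libraries for Lum. Its deep levels were 0.509, 0.876 and 0.909 CPM after saline and 0.629, 0.191, 0.437 and 0.442 CPM after cbx.

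Fam180a (ENSMUSG00000047420) was almost confined to the superficial libraries, with 7.14, 7.89 and 5.61 CPM after saline and 10.1, 4.27, 10.3 and 11.4 CPM after cbx. Cbx library 2 was the lowest of all 7. Deep libraries held 0.159, 0.121 and 0.193 CPM after saline and 0, 0, 0.117 and 0.0884 CPM after cbx. Over the whole cbx groups it had 1341 counts in the superficial and 7 in the deep libraries, a ratio of 198 (95% interval 96.1 to 495, counting error only). A library with 0 counts allows up to 3 counts, which was 0.0615 to 0.0937 CPM in these libraries.

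Transporters and enzymes of the barrier layers formed the group with the steepest layer difference. Ptgds was the most abundant of all 33 genes per kilobase in the saline superficial group, at 334 CPM per kilobase. Slc6a13 followed at 14.7, Slc13a4 at 6.61 and Slc22a6, a carrier of organic anions, at 4.37. The other 3 genes were low: Cbr2, a carbonyl reductase, had 1.43, Slc47a1, which extrudes organic cations, 0.187 and Slc22a2, which takes them up, 0.106. Summed CPM of the group was 504, 353 and 271 in saline and 1147, 509, 1687 and 2231 in cbx superficial libraries. In deep libraries it was 13.6, 14.2 and 9.37 after saline and 12.3, 4.83, 8.98 and 11.5 after cbx. Most of the superficial sum was Ptgds. Without it, a sum chosen after the data were seen, the other 6 genes held 91.7, 73.2 and 61 CPM in saline and 135, 99.1, 178 and 242 CPM in cbx superficial libraries, still without overlap. The ratio of cbx to saline means in the superficial layer was 3.71 with Ptgds and 2.17 without it.

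Ptgds (ENSMUSG00000015090) encodes lipocalin-type prostaglandin D synthase, a product of arachnoid cells that is secreted into the cerebrospinal fluid. Its superficial levels were 412, 279 and 210.4 CPM after saline and 1012, 410.1, 1509.6 and 1989 CPM after cbx. Cbx library 2 was at the level of saline library 1, and the other cbx libraries were far above both. Deep levels were 8.9, 9.82 and 6.03 CPM after saline and 9.35, 2.54, 5.95 and 9.22 CPM after cbx, with overlap. The layer difference was 5.19 (SE 0.67) after saline and 7.50 (SE 0.63) after cbx on the log2 scale.

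Slc6a13 (ENSMUSG00000030108), a transporter of GABA and taurine, had 39.1, 33 and 26.6 CPM in saline and 53.3, 45.1, 67.6 and 96.6 CPM in cbx superficial libraries. All 4 cbx libraries were above all saline libraries. Its deep levels ran the other way without overlap, 2.64, 2.81 and 1.76 CPM after saline and 1.38, 1.45, 1.52 and 0.884 CPM after cbx. Slc13a4 (ENSMUSG00000029843), a carrier of sulfate, had 27.6, 22.5 and 17.8 CPM and 40.3, 29.6, 61.4 and 81.1 CPM in the superficial groups, again without overlap. Its deep levels were 0.509, 0.514 and 0.468 CPM and 0.754, 0.136, 0.496 and 0.412 CPM, and cbx deep library 1 was the highest of the 7. Slc22a2 (ENSMUSG00000040966) had 0.257, 0.284 and 0.158 CPM and 0.641, 0.398, 1.39 and 2.91 CPM in the superficial groups, from 26 and 205 counts in all. The deep groups held 4 counts after saline and 1 count after cbx. The cbx layer ratio was 212 (95% interval 37.7 to 8428, counting error only), so its size is poorly known.

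Of the 7 transcription factors, Foxc1 was the most abundant by CPM. Foxc1 (ENSMUSG00000050295) is a forkhead factor needed for the formation of the meninges. It had 18.2, 17.3 and 16.5 CPM in saline and 24.7, 20.5, 24.6 and 31.4 CPM in cbx superficial libraries, with no overlap. In the deep layer it still had 5.05, 5.44 and 5.07 CPM after saline and 3.5, 4.15, 5.39 and 5.21 CPM after cbx, so its layer difference was among the smaller ones, 1.74 (SE 0.16) after saline. Tbx18 (ENSMUSG00000032419), a T-box factor that pericytes also carry, had 14.5, 12 and 10.1 CPM and 15.2, 11.9, 15.5 and 20.6 CPM in the superficial and 1.21, 1.87 and 1.74 CPM and 0.587, 0.928, 1.2 and 1.38 CPM in the deep groups. Cbx superficial library 2 lay within the saline range and the other cbx libraries lay above it.

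Foxd1 (ENSMUSG00000078302), a forkhead factor of mesenchyme, had 6.88, 5.5 and 4.64 CPM and 10.6, 5.58, 14.4 and 12.8 CPM in the superficial groups. Deep libraries had 1.49, 2.24 and 1.02 CPM after saline and 0.922, 0.71, 1.34 and 1.5 CPM after cbx. Msx2 (ENSMUSG00000021469), a homeobox factor of neural crest mesenchyme, had the largest layer difference after saline. Superficial levels of Msx2 were 2.03, 1.11 and 0.869 CPM after saline and 2.99, 1.93, 1.81 and 2.71 CPM after cbx. In the deep layer only saline library 1 and cbx library 3 held any counts, 1 and 4. The saline layer ratio was 133 from 147 and 1 counts, with a 95% interval of 23.4 to 5276 for counting error only.

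Prdm6 (ENSMUSG00000069378), a factor of smooth muscle precursors, had the largest superficial difference between treatments. It had 0.743, 0.258 and 0.237 CPM after saline and 2.11, 0.882, 3.55 and 4.5 CPM after cbx. All cbx libraries were above all saline libraries, and cbx libraries 3 and 4 stood well above the other 2. Its deep levels were 0.0318, 0.302 and 0.0551 CPM and 0.105, 0, 0.0292 and 0.0295 CPM. Foxc2, a close relative of Foxc1, was at 0.948 to 2.09 CPM in saline and 1.79 to 9.94 CPM in cbx superficial libraries. Nupr1, a small stress-responsive nuclear protein, was at 3.29 to 6.28 CPM and 5.63 to 13.4 CPM.

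Among signals and receptors, Igfbp2 and Igf2 belong to the insulin-like growth factor system, in which Igf2 is a growth factor ligand and Igfbp2 a binding protein. Igfbp2 (ENSMUSG00000039323) was hardly a superficial gene. It had 231, 231 and 235 CPM in saline superficial and 192, 187 and 206 CPM in saline deep libraries. The cbx groups had 306, 225, 301 and 368 CPM in the superficial and 199, 161, 176 and 184 CPM in the deep layer. Its layer difference was the smallest of the set, 0.25 (SE 0.12) after saline and 0.74 (SE 0.11) after cbx, and it goes against the label of a meningeal gene in these pieces.

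Igf2 (ENSMUSG00000048583) had 45.8, 38 and 30.4 CPM in saline and 26.1, 31.4, 59.1 and 100.1 CPM in cbx superficial libraries. Cbx library 1 was the lowest and cbx library 4 the highest of all 7. Deep levels were 2.38, 1.75 and 1.07 CPM after saline and 0.88, 1.36, 0.846 and 1.38 CPM after cbx. Thrombomodulin, Thbd (ENSMUSG00000074743), a receptor that binds thrombin on vessel and other surfaces, had 9.25, 8.62 and 5.5 CPM and 18.4, 10.6, 37.3 and 34.6 CPM in the superficial groups, with no overlap. Deep Thbd levels were 2.67, 2.24 and 2.23 CPM and 2.2, 1.99, 3.06 and 2.71 CPM. The ligand Wnt6 was at 2.71 to 5.0 CPM in saline and 4.01 to 16.2 CPM in cbx superficial libraries. The orphan receptor Mrgprf was at 3.95 to 5.25 CPM and 5.89 to 18.4 CPM.

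The promoters of 3 members are shown because these genes carry the main contrasts within the set: Col1a2 stands for the collagens, Slc13a4 for the barrier transporters and Ptgds for the gene with the most superficial RNA. The sequences are RefSeq's, build GRCm38.p6, and run from 250 bases before to 50 bases after the annotated start, 5′ to 3′ on the gene's strand. Capitals mark the CCAAT motif on either strand (CCAAT or ATTGG).
Col1a2, chr6:4505368-4505667, plus strand: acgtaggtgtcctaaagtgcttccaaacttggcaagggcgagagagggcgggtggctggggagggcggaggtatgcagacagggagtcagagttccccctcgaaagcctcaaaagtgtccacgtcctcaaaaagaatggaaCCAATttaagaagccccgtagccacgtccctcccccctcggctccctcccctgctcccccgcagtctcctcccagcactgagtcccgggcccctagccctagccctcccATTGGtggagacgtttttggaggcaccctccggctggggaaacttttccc
Slc13a4, chr6:35308077-35308376, minus strand: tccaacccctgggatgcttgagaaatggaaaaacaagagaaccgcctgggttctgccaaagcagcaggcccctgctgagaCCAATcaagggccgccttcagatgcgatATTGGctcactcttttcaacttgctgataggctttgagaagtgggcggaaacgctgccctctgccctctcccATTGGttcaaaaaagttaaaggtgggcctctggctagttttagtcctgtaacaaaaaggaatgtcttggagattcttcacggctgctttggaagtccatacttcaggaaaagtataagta
Ptgds, chr2:25469700-25469999, minus strand: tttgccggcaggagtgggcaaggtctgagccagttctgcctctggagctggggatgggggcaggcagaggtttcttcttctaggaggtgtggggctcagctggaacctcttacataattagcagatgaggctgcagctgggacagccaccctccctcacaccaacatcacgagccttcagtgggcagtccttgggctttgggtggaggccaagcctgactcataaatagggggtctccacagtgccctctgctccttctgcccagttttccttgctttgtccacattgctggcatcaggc
The motif occurs 2 times in the Col1a2 window, 3 times in that of Slc13a4 and 0 times in that of Ptgds. Promoters were matched for 24 of the 33 genes, with 31 windows in all. CCAAT was found in 12 of the 31 windows (38.7%), against 37.4% of all 32851 promoters of the same length. TATAAA (or TTTATA) was found in 2 windows, those of Col3a1 and Ogn (6.45%, against 13.6% of all). The forkhead motif GTAAACA (or TGTTTAC) was found in 1, that of Col6a1 (3.23%, against 3.65% of all). These matches are descriptions of letters only.

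After saline, all 33 genes had a higher mean in the superficial than in the deep layer. By edgeR's quasi-likelihood test at an adjusted p under 0.05, 29 were called higher and 0 lower, where 9.67% of all 20330 genes tested were called higher and 8.73% lower. The superficial libraries lay above the deep ones without overlap for 31 of the 33, against 20.2% of all genes. The 4 genes not called were Igfbp2, Prdm6, Slc22a2 and Slc47a1. With the pool, whose 2 layers pair, as a block, 32 were called higher, all except Prdm6, against 12% of all genes. The median log2 difference was 2.98, from 0.25 for Igfbp2 to 6.64 for Msx2, while the median of all genes tested was 0.04. By role, the matrix genes had a median of 3.10, the transporters and enzymes 3.82, the transcription factors 2.55 and the signals and receptors 2.98. Within the matrix group, Ogn (5.57), Fam180a (5.41) and Fmod (4.85) had the largest layer differences, while Bgn (1.36) and Col6a2 (1.48) had the smallest. Since the members were partly picked from this comparison, the counts only describe them.

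After cbx, the layer difference was called for all 33 genes, each higher in the superficial layer, where 18.1% of all genes were called higher and 14.1% lower. The median was 4.57, from 0.74 for Igfbp2 to 7.51 for Fam180a. By role it was 4.20 for matrix genes, 6.66 for transporters and enzymes, 4.51 for transcription factors and 5.61 for signals and receptors. The cbx groups have 4 libraries each and the saline groups 3, so the numbers of calls are not directly comparable. For Ptgds, Slc13a4 and Slc22a6 the log2 layer differences after cbx were 7.50, 6.82 and 5.70, beside 5.19, 5.50 and 4.16 after saline.

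In the superficial layer, all 33 genes had a higher fitted mean after cbx than after saline. The study used cbx to block retinal waves, which were not measured in these libraries. The comparison of cbx with saline pools called 13 of the genes higher and 0 lower. Of all genes, 2.68% were called higher and 1.65% lower. The called genes were the matrix genes Islr, Pcolce and Bgn, the transporters Slc22a6, Slc22a2, Slc47a1 and Slc6a13, the transcription factors Foxc1, Prdm6 and Nupr1, and the signals and receptors Wnt6, Mrgprf and Thbd. The median log2 difference was 0.94, from 0.34 for Lum to 2.75 for Prdm6, beside 0.01 for all genes. The groups did not overlap for 12 genes, each higher after cbx, against 8.96% of all genes. By role the median was 0.50 for matrix genes, 1.44 for transporters and enzymes, 0.94 for transcription factors and 1.44 for signals and receptors.

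The collagens were not among the called genes. Col1a1, Col1a2, Col3a1, Col6a1 and Col6a2 had log2 differences of 0.51, 0.54, 0.44, 0.49 and 0.49 (SE 0.21 to 0.31). Pcolce, which speeds the trimming of procollagen, had 0.89 (SE 0.18), and Islr and Bgn had 0.42 (SE 0.10) and 0.55 (SE 0.14). The proteoglycans Fmod and Ogn had 1.14 (SE 0.34) and 1.13 (SE 0.33) without being called. Ptgds, with 2.03 (SE 0.54), was also not called. The spread between cbx libraries differed between these genes: the coefficient of variation of Ptgds was 55.0% and that of Islr 12.9% in the cbx superficial group.

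The count of 13 rested on single libraries. It was 0 without saline library 2 or without saline library 3, 7 without saline library 1, 22 without cbx library 2, 8 without cbx library 3 and 6 without cbx library 4. Without the 2 pools of one sex the member count was 2 (Slc6a13 and Slc22a6), beside 69 of 20908 genes called higher. It was 1 (Pcolce) when the deep libraries were left out of the model, beside 90 of 19278 genes. The median difference moved less, between 0.77 and 1.14 over the libraries left out in turn.

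**Figure D2:**
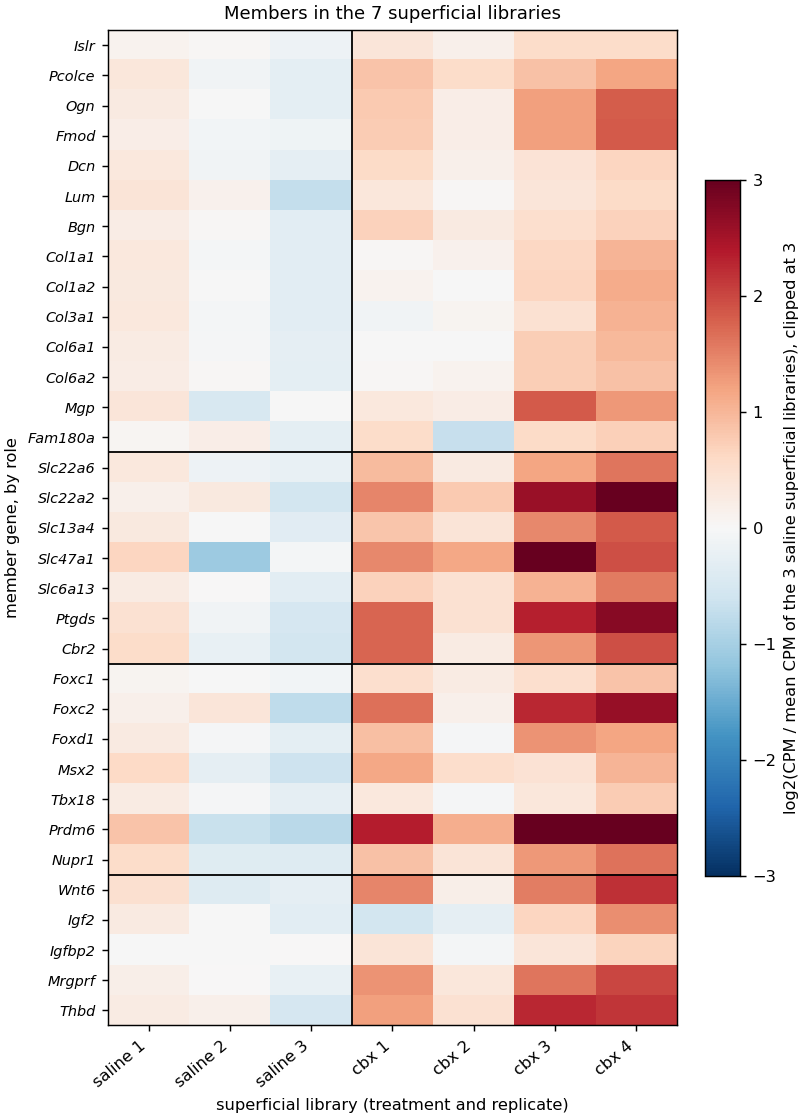
Level of each of the 33 genes in the 7 superficial libraries, as the log2 ratio of its CPM to the mean of the 3 saline libraries, with colours clipped at 3. Rows are genes in the order of their roles, with lines between the 4 roles, and columns are libraries; saline library 3 is mostly blue, cbx library 2 is pale and cbx libraries 3 and 4 are mostly red.

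Library by library, the genes kept nearly the same order. Of the 7 superficial libraries, cbx library 4 was the highest for 27 genes, cbx library 3 for 4 (Mgp, Slc47a1, Foxd1 and Thbd) and cbx library 1 for 2 (Bgn and Msx2). Saline library 3 was the lowest for 27 genes. Within the saline group, library 1 was the highest for 29 genes and library 3 the lowest for 29. Within the cbx group, library 2 was the lowest for 28. These ranks were taken for the members only, so no share of all genes stands beside them.

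Set against the saline range gene by gene, the 4 cbx superficial libraries differed. Cbx library 4 was above all 3 saline libraries for 33 genes and cbx library 3 for 31. Cbx library 1 was above for 25, within the range for 7 (Lum, Mgp and the 5 collagens) and below it for 1, Igf2. Cbx library 2 was above for 12, within for 19 and below for 2 (Fam180a and Igfbp2). Of all genes tested, 36.8%, 29.5%, 29.7% and 29.5% were above the saline range in cbx libraries 1 to 4. In cbx library 1 the role groups parted: all 7 transporters and enzymes and all 7 transcription factors were above the saline range, while 7 of 14 matrix genes were.

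Ratios between genes in the same library show which of them moved together. Col1a1 over Col1a2 was 0.707, 0.674 and 0.7 in saline and 0.667, 0.762, 0.682 and 0.656 in cbx superficial libraries, so both chains of type I collagen kept close to one proportion. Col3a1 over Col1a2 was 0.866, 0.83 and 0.857 in saline and 0.744, 0.907, 0.744 and 0.808 in cbx libraries. Both ratios had their highest value in cbx library 2.

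Ptgds and Slc13a4 did not keep their proportion to collagen. Ptgds over Col1a2 was 1.32, 1.1 and 1.02 in saline and 3.67, 1.6, 3.73 and 3.57 in cbx libraries. Cbx libraries 1, 3 and 4 had similar values although their Col1a2 levels ranged from 276 to 557 CPM. Slc13a4 over Col1a2 was 0.088, 0.0887 and 0.0865 in saline and 0.146, 0.115, 0.152 and 0.146 in cbx libraries. The 5 small proteoglycans of the set fell into different patterns. Fmod over Col1a2 was 0.148, 0.149 and 0.18 against 0.25, 0.182, 0.234 and 0.262, and Ogn over Col1a2 was 0.0544, 0.0555 and 0.0562 against 0.0888, 0.0642, 0.083 and 0.0896. For Ptgds, Slc13a4, Fmod and Ogn over Col1a2, every cbx library was above every saline library, cbx library 2 by the least. Igf2 over Col1a2 was 0.146, 0.15 and 0.148 in saline and 0.0945, 0.122, 0.146 and 0.18 in cbx libraries, lower than saline in cbx libraries 1 and 2 and higher in library 4.

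The other 3 proteoglycans did not follow Fmod and Ogn. Dcn over Col1a2 was 0.174, 0.16 and 0.177 in saline and 0.236, 0.189, 0.144 and 0.122 in cbx libraries. Bgn over Col1a2 was 0.159, 0.173 and 0.166 in saline and 0.251, 0.202, 0.15 and 0.123 in cbx libraries. For both, cbx libraries 1 and 2 lay above the saline range and cbx libraries 3 and 4 below it. Lum over Col1a2 was 0.0341, 0.0353 and 0.0244 in saline and 0.0377, 0.0327, 0.0261 and 0.022 in cbx libraries, above the saline range in cbx library 1 and below it in library 4.

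**Figure D3:**
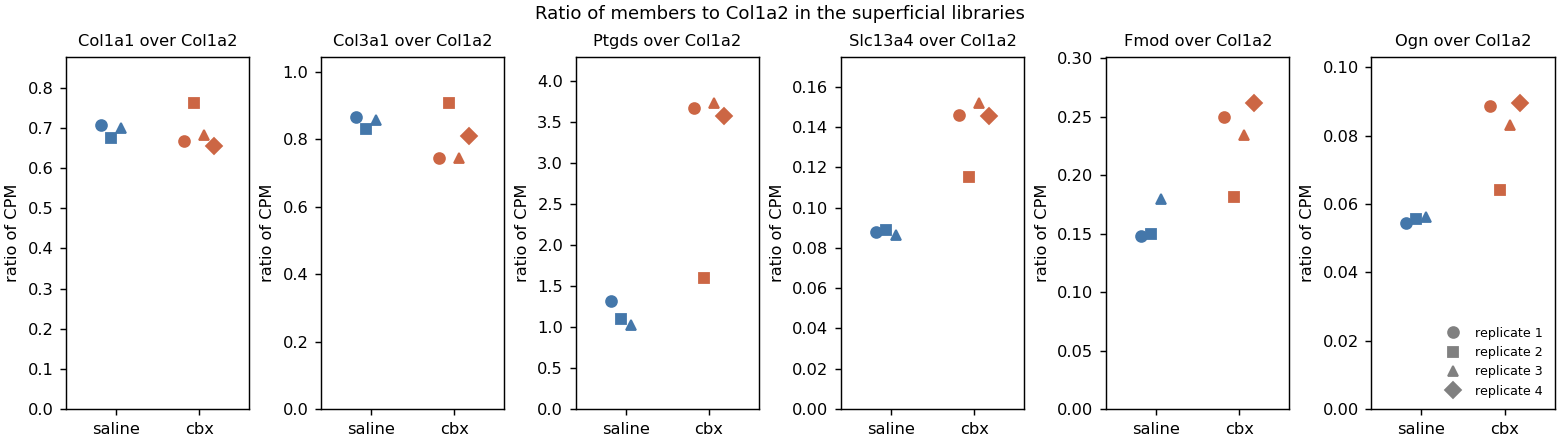
Ratio of the CPM of 6 genes to that of Col1a2 in the 7 superficial libraries, on axes that start at 0. Points are libraries, with a shape for each replicate number; the collagen ratios of cbx libraries lie around those of saline, while Ptgds over Col1a2 is 1.6 in cbx library 2 and 3.57 to 3.73 in the others.

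In the deep layer no member passed the threshold between cbx and saline. By edgeR's quasi-likelihood test, 0 of 33 were called higher and 0 lower, where 1.06% of all genes were called higher and 0.777% lower. At an unadjusted p under 0.05, 0 were higher and 6 lower, where 15.3% of all genes passed in either direction. DESeq2 called 1 lower, Islr, where it called 453 of 14810 genes lower. The fitted difference was below 0 for 26 genes and above 0 for 7, with a median of -0.43 beside 0.01 for all genes.

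The 6 genes lower at the unadjusted threshold were 4 matrix genes, 1 transporter and 1 transcription factor. On the log2 scale, Islr differed by -0.43 after cbx (SE 0.11, edgeR adjusted p = 0.0505, lower in 4 of 4 cbx libraries than in every saline library). Col1a1 had -0.87 (SE 0.35, edgeR adjusted p = 0.262) and Col3a1 -0.62 (SE 0.28, edgeR adjusted p = 0.321). Lum had -0.82 (SE 0.37, edgeR adjusted p = 0.301). Slc6a13 had -0.86 (SE 0.36, edgeR adjusted p = 0.28) and Tbx18 -0.68 (SE 0.28, edgeR adjusted p = 0.234). The cbx and saline libraries overlapped for Col1a1, Lum and Tbx18.

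Islr lay next to the threshold, and the setting decided on which side. Its adjusted p was 0.0467 with median-of-ratios size factors, 0.0480 with a filter of 1 CPM in 3 libraries, 0.0131 in DESeq2 and 0.00647 without a filter. It was 0.0502 to 0.227 in the other settings, libraries left out included.

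The deep groups did not overlap for 8 genes, each lower after cbx: Col1a2, Col3a1, Col6a1, Fam180a, Islr, Slc22a6, Slc6a13 and Wnt6. Of all genes tested, 8.05% were lower and 7.96% higher in this way. Cbx deep libraries 1 to 4 were below all 3 saline deep libraries for 18, 24, 19 and 13 genes, against 30.4%, 31.3%, 30.6% and 27.6% of all genes. The highest deep library was a saline one for 26 of the 33 genes, a count that was not taken over all genes tested. Levels of many of the 33 genes were low here, as the values of Fam180a, Slc22a2 and Msx2 above show.

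**Figure D4:**
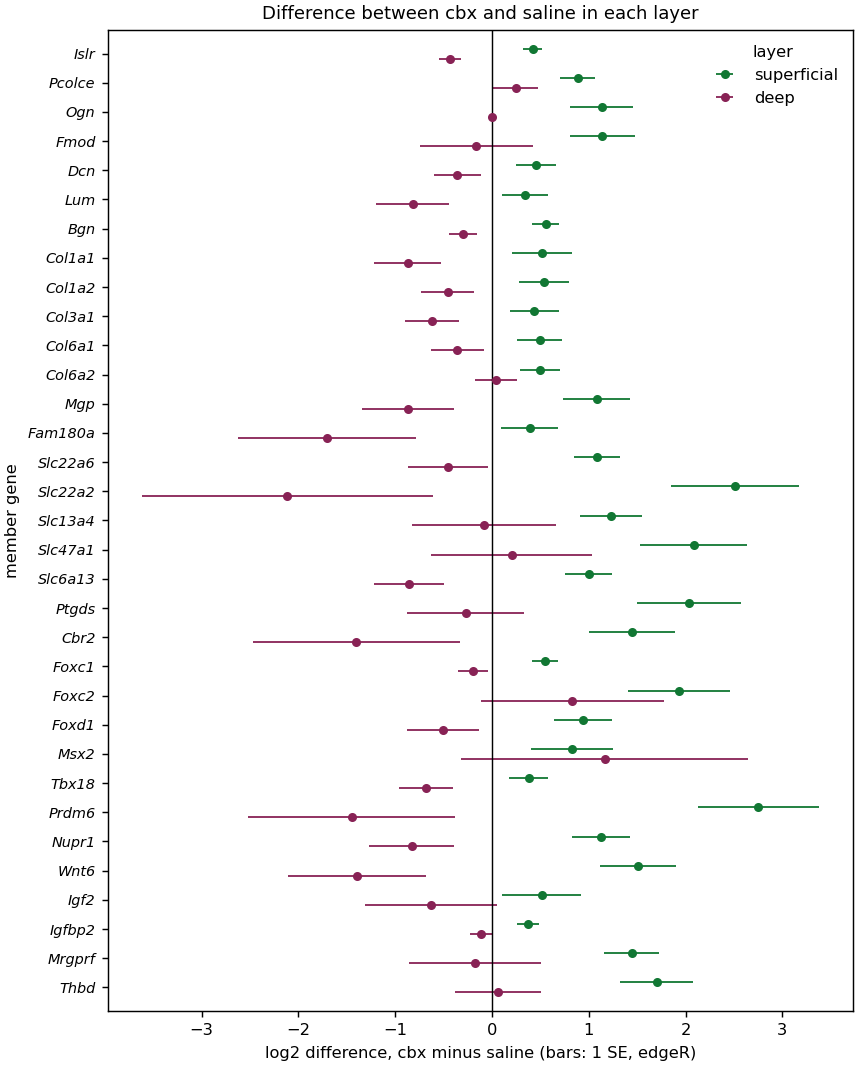
Log2 difference between cbx and saline for each of the 33 genes, in the superficial layer (green) and the deep layer (purple), with bars of 1 SE from edgeR; the SE of Ogn in the deep layer could not be estimated and is not drawn. Superficial points all lie right of 0, and 26 deep points lie left of it.

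Whether the cbx difference itself depended on the layer was fitted as an interaction. No gene of any kind passed edgeR's adjusted threshold (0% of 20330), nor did any of the 33. At an unadjusted p under 0.05, 24 of the 33 were higher in the superficial layer and 0 lower, where 8.36% of all genes passed in either direction. The median of the interaction was 1.30 on the log2 scale and it was above 0 for 32 genes, the exception being Msx2 with -0.34 (SE 1.11), which had 5 deep counts in all. The superficial part of this contrast had been used to choose members, so no p is given.

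The 2 libraries of a pool shared deviations from their group means, so the pool was also entered as a block. With the block, 9 genes were called higher: Fmod, Wnt6, Thbd, Nupr1, Islr, Dcn, Foxd1, Slc22a6 and Bgn, where 0.271% of all genes were called higher and 0.0295% lower. DESeq2 called 4 of the 33 (Slc6a13, Nupr1, Islr and Bgn, 0.231% of all genes), 24 were called without a filter on low counts (0.487% of all genes), and 3 were called without cbx superficial library 2 (Wnt6, Islr and Slc22a6, 0.069% of all genes).

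The wider families of these genes were read from lists that exclude the members. Between the layers after saline, 9.67% of all genes were called higher and 8.73% lower. In the superficial cbx comparison these shares were 2.68% and 1.65%. Of 26 other collagens, 14 were called higher and 5 lower in the superficial layer after saline, with a median of 0.97. The basement membrane chains Col4a1 and Col4a2, which endothelium makes too, led in level: Col4a1 was at 357 to 527 CPM in saline superficial and 163 to 180.0 CPM in saline deep libraries. Between cbx and saline in the superficial layer, 0 of the 26 were called in either direction by edgeR, with a median of 0.16. In a list of this size, that count is near the share of all genes. Of 27 collagen processing genes, 13 were called higher and 1 lower in the superficial layer after saline. In the superficial cbx comparison 5 were called higher and 0 lower. Serpinh1, the collagen chaperone of the endoplasmic reticulum, was at 105 to 118 CPM after saline and 126 to 164 CPM after cbx in superficial libraries.

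Of 10 other small proteoglycans tested, 5 were called higher in the superficial layer after saline and 0 lower. After cbx, Omd and Prelp were called higher than after saline in that layer, and Prelp was at 2.13 to 3.63 CPM against 4.98 to 8.92 CPM. Of 17 other barrier transporters, 8 were called higher and 1 lower between the layers after saline. In the superficial cbx comparison Slc6a12 was called higher and Slc22a3 lower. Of 25 other mesenchymal transcription factors tested, 14 were called higher and 0 lower between the layers after saline, and 2 higher and 0 lower in the superficial cbx comparison (Eya2 and Prrx1). Of 15 other genes of the insulin-like growth factor system, 6 were called higher and 1 lower between the layers after saline. In the superficial cbx comparison 1 was called higher, Igfbp6, and 0 lower. In the deep cbx comparison, Slc22a3 and the collagen processing gene Fkbp10 were called lower, and 0 other genes of these 6 lists were called. The single genes named here for small counts were chosen after their values were seen.

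Markers of neighbouring cell types were summed in the same libraries. The shares of all genes called are those given for the wider families. Macrophages of the brain borders, which live in the meninges, were also marked more strongly in the superficial pieces: 11 genes summed to 144, 113 and 84.6 CPM in saline and 136, 123, 218 and 263 CPM in cbx superficial libraries. In the deep layer they had 24.9 to 27.7 CPM and 21.8 to 31.9 CPM. Of the 11, 10 were called higher in the superficial layer after saline and 1 in the superficial cbx comparison. The list of 10 arachnoid barrier markers holds the member Ptgds, which gave most of its superficial sum, so it was read without that gene. The other 9 summed to 255, 243 and 227 CPM in saline and 309.6, 261, 364 and 411 CPM in cbx superficial libraries. The ratio of cbx to saline means was 1.39, against 2.89 with Ptgds. Of the 9, 6 were called higher between the layers after saline and 2 (Cldn11 and Crabp2) in the superficial cbx comparison, and 0 lower in either. Their retinoic acid enzyme Aldh1a2 was at 19.9 to 28.2 CPM and 26.3 to 75.6 CPM. The 21 matched markers of pia and meninges in general summed to 934, 826 and 717 CPM and 928, 876, 1105 and 1302 CPM. Of 20 tested, 15 were called higher between the layers after saline and 8 in the superficial cbx comparison, and 0 lower in either.

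Markers of other cell types varied less between the libraries. Endothelial markers summed to 594 to 620.1 CPM in saline and 519.9 to 617 CPM in cbx superficial libraries, and to 392 to 417 CPM and 328 to 429 CPM in the deep ones. Mural cell markers summed to 365 to 448 CPM after saline and 295 to 391 CPM after cbx in the superficial layer, and to 358 to 418 CPM and 314 to 382 CPM in the deep layer. Choroid plexus markers stayed between 10.1 and 17.9 CPM and bone, cartilage and muscle markers between 22 and 33.8 CPM in all 14 libraries. The sum of collicular neuron markers stayed between 1118 and 1279 CPM in all 14 libraries. Single genes of that list differed between the layers after saline, 9 called higher and 4 lower in the superficial layer.

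Some markers of blood and immune cells were higher after cbx in the superficial layer. Microglial markers summed to 290.1 to 314 CPM after saline and 375 to 406 CPM after cbx there, without overlap. Of the 12, 8 were called higher, where 2.68% of all genes were. Unlike the members, they were lower in the superficial than in the deep layer. Deep libraries held 465 to 499 CPM after saline and 422 to 480 CPM after cbx, above every superficial library. Between the layers after saline, 11 of 12 were called lower and 0 higher in the superficial layer. Red blood cell markers summed to 282 to 382 CPM after saline and 380.3 to 551 CPM after cbx in the superficial layer, with a slight overlap and 1 of 9 called higher. The part of these cells, and of the amount of covering tissue left on each piece, in the cbx difference was not tested.

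**Figure D5:**
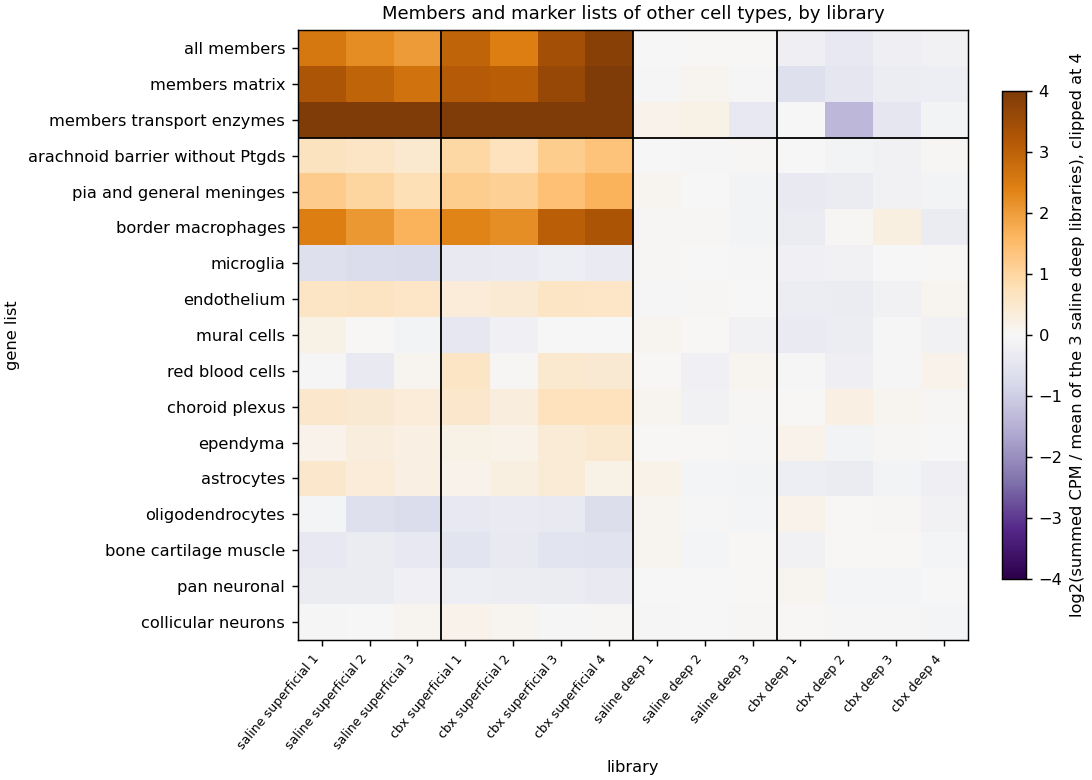
Summed CPM of the 33 genes, of 2 of their role groups and of 14 marker lists in each of the 14 libraries, as the log2 ratio to the mean of the 3 saline deep libraries, with colours clipped at 4. Rows are lists and columns are libraries; the arachnoid row leaves out Ptgds, which is one of the 33 genes. The border macrophage row is darkest in cbx superficial libraries 3 and 4, and neuronal rows stay near 0.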

How the data were processed

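Paired-end poly-A RNA-seq counts per Ensembl gene were deposited by the authors as whole, unnormalised read counts for each of 14 libraries. The submitters' processing notes name FastQC 0.11.9, STAR 2.7.9d, SAMtools 1.14 and featureCounts from Subread 2.0.1, and both GRCm39 and mm10. Neither strand setting nor annotation is given in the sources used here, and overlapping genes may share reads. Symbols were found for 52083 of 55359 identifiers, which held 98.74% of counts. Replicate and group came from the labels.

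Counts were filtered by group with edgeR 4.0.16 (filterByExpr), scaled with TMM factors and fitted with 4 group means by the robust quasi-likelihood method in R 4.3.3, with 10 residual degrees of freedom and Benjamini-Hochberg adjustment over 20330 genes (threshold 0.05). CPM values use the TMM-scaled library sizes. CPM per kilobase uses the transcript length of GENCODE M21. DESeq2 1.42.0 and limma 3.58.1 (voom) were alternatives. On simulated counts of 20330 genes, 82% of changes of 2-fold and 76% of 1.5-fold were found in the superficial cbx comparison. In the deep one, 93% and 63% were found. The changed genes were drawn from those with a mean above 1 CPM over all libraries, and simulated from that mean. Members such as Ogn and Slc13a4, with saline deep means of 0.294 and 0.497 CPM, lie below it, so the deep percentages do not apply to them. Intervals and floors cover counting error only.

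The 33 members and the gene lists were chosen with earlier results of these data known. Values in every library are given for the 3 members with the highest mean CPM in each role, for members with the highest or lowest log2 difference in a comparison, and for those past the threshold in the deep cbx comparison. At most 4 genes of each other list, those with the highest mean CPM, are named beyond small counts. Replicate numbers paired the layers: deviations from group means correlated at 0.182 to 0.394 in all 7 pools.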

Additional observations from a re-analysis of the deposited data

Results flagged for a closer look

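A check of single libraries, for a gap to the nearest other library that is large beside the group's range, marked 4 of 68 groups, where chance gives about 1 in 20. All 4 were in the cbx deep group and rest on few counts. Slc22a2 was at 0.0273 CPM in cbx deep library 2, which is 1 count, and at 0 in the others. Msx2 was at 0.117 CPM in cbx deep library 3, which is 4 counts, and at 0 in the others. Wnt6 was at 0.335 CPM in cbx deep library 1, from 16 counts, and at 0.0875 to 0.109 CPM in the others, from 3 to 4 counts. Mrgprf was at 0.206 CPM in cbx deep library 4, from 7 counts, and at 0.136 to 0.147 CPM in the others, from 5 to 7 counts. For a gene at 0 in the other 3 libraries the measure takes its highest value from a single count. At these counts no library was shown to stand apart for Slc22a2, Msx2 or Mrgprf.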

How the results depend on the processing

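The layer differences were stable: with single libraries left out, 28 to 29 members were called higher after saline and 33 after cbx, and the medians were 2.77 to 3.25 and 4.28 to 4.71. With only the compared groups in the fit, the saline median was 3.37, over the 30 members tested. The superficial cbx count of 13 became 29 without a filter on low counts, beside 844 of 38164 genes called higher. It became 20 in DESeq2 (906 of 16779 genes) and 1 with only the compared groups (90 of 19278 genes). Without the pools of one sex it was 2 (69 of 20908 genes). With single libraries left out it was 0 to 22, and the count over all genes moved too, as given above. Between the treatments, same-numbered libraries correlated at -0.276 to -0.0167 and share only a number. With the replicate block, the superficial count was 4, beside 314 of all genes called higher. The superficial median was 0.77 to 1.14 with libraries left out.

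In the deep layer, the count of lower members, 0, became 1 with median-of-ratios factors, beside 165 of 20330 genes called lower. It became 1 with a 1 CPM filter (192 of 15909 genes) and 1 in DESeq2 (453 of 14810 genes). With only the compared groups it was 2 of the 25 members tested (Col3a1 and Col1a2), beside 282 of 18914 genes. Without a filter it was 9, beside 245 of 38164 genes. The deep median was -0.49 to -0.38 with libraries left out. The layer dependence count of 0 became 24 without a filter, 4 in DESeq2, 9 with the replicate block and 0 to 3 with libraries left out, with medians of 1.04 to 1.5. With the block, 32 members were called between the layers after saline, and counts after cbx and in the deep cbx comparison were the same. Without a filter, adjusted p-values were far smaller (7.97e-17 for Col1a1 in the deep layer), so its counts are not comparable. Ratios of summed CPM with libraries left out were 4.39 to 5.33 and 9.37 to 12.8 between layers and 1.63 to 2.23 and 0.836 to 0.883 between treatments. Without Ptgds and Igfbp2 they were 8.09, 16.2, 1.53 and 0.765. Without Ptgds, the layer ratio of the arachnoid markers was 1.5 after saline (3.21 with it) and 2.18 after cbx (9.71 with it), and that of the transport and enzyme members after saline was 18.2 (30.3 with it). On CPM of total counts, the saline layer ratio was 1.6 for endothelium, 0.662 for microglia, 0.887 for pan-neuronal and 1.06 for collicular markers.

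Deep cbx differences near 0 changed sign. That of Ogn was -0.00568 with median-of-ratios factors, -0.000473 with TMM factors computed without members and other non-neural lists, -0.00413 without a filter, -0.00143 with the 1 CPM filter, -0.0799 with voom, -0.762 without the pools of one sex, -0.342 with the block and -0.485 to 0.248 with libraries left out. Col6a2 was at -0.0327 without the pools of one sex, -0.0416 with the block and -0.0774 to 0.132 with libraries left out. Thbd was at -0.0808 with the block and Mrgprf at 0.0159 with voom. With libraries left out, Thbd ranged from -0.0500 to 0.149, Mrgprf from -0.544 to 0.409, Fmod from -0.375 to 0.153, Slc13a4 from -0.524 to 0.205, Slc47a1 from -0.280 to 1.49, Msx2 from -1.97 to 3.14 and Prdm6 from -2.55 to 0.0262. The causes were not tested. Deep counts differed widely between these genes. Msx2 had 1 count in all in the saline deep and 4 in the cbx deep group, while Col6a2 had 1941 and 2977. In the 14 libraries, 3 counts are 0.0615 to 0.0937 CPM.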

Other observations

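The chains of type VI collagen, a beaded-filament collagen, had different proportions in the layers. Col6a1 over Col6a2 was 1.14, 1.06 and 1.14 in saline and 1.07, 1.02, 1.11 and 1.18 in cbx superficial libraries. In deep libraries it was 0.573, 0.47 and 0.442 after saline and 0.366, 0.356, 0.451 and 0.331 after cbx, below every superficial library. Lum over Fmod, a pair of related proteoglycans, was 0.23, 0.237 and 0.136 in saline and 0.151, 0.18, 0.111 and 0.0841 in cbx superficial libraries, with overlap. Foxc2 over Foxc1 was 0.0987, 0.121 and 0.0575 in saline and 0.204, 0.0874, 0.315 and 0.317 in cbx superficial libraries, with cbx library 2 inside the saline range. These ratios were chosen with the values known and are given without a test.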
